A study of Mus musculus with 12 samples.

Results

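Glutathione S-transferase (GST) genes were followed in colonic organoids from mice labelled AhR deficient (AhR-/-, here KO) and from wild-type (WT) mice. The 10 genes described here, Gsta1, Gsta2, Gsta3, Gsta4, Gstm1, Gstm3, Gstp1, Gstt1, Gsto1 and Mgst1, were picked by name as members of this enzyme family, and all 10 were found among the 48795 Ensembl genes of the expression table. Organoids are small epithelial structures grown in a gel from isolated colon crypts, and total RNA was sequenced from 3 libraries in each of 4 groups. The groups were KO organoids in the differentiated condition, WT organoids in the differentiated condition, KO organoids in the stem cell condition and WT organoids in the stem cell condition, all on a C57BL/6 background. The stem cell medium (WENR) held EGF, Noggin and R-spondin-1 together with Wnt-3A, and the differentiated condition followed 3 days in medium free of Wnt-3A (ENR). The labels did not give how the allele was made, the age of the mice, or whether libraries of 1 group are different mice, different cultures or repeats of 1 culture, so p-values measure the spread between these libraries only. With whole organoids, fewer cells of a type and less RNA per cell cannot be told apart.

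GSTs join the tripeptide glutathione to reactive electrophiles, among them products of xenobiotic metabolism and of lipid peroxidation, and the conjugates are then pumped out of the cell. The cytosolic enzymes fall into classes named alpha (Gsta), mu (Gstm), pi (Gstp), theta (Gstt) and omega (Gsto), while Mgst1 sits in membranes of the endoplasmic reticulum and of mitochondria. AhR, the aryl hydrocarbon receptor, is a ligand-activated transcription factor that binds DNA with its partner ARNT, and rodent alpha-class GST genes are textbook members of the battery of drug-metabolising genes that AhR and the oxidative stress factor NRF2 (Nfe2l2) switch on.

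Recovered reads assigned to genes lay between 25.1 M and 99.0 M per library, and the normalized totals between 52.6 M and 57.7 M. Levels are given as normalized counts, that is, reads per gene after the authors' scaling between libraries. The names KO and WT are those of the labels. Ahr itself read 3824, 3356 and 3110 in KO differentiated libraries, against 2127, 2236 and 2260 in WT differentiated ones, 1.55 times the WT mean, and it read 2503, 2831 and 2690 in KO stem libraries, against 1762, 1746 and 1909 in WT stem ones, 1.48 times the WT mean (two-sided exact permutation test, p = 0.1 in both conditions, the smallest that 3 against 3 libraries allow). RNA of the gene was thus higher, not lower, in libraries labelled KO, and since the deleted part is not given, a gene-level count does not check the label. Cyp1b1, a direct AhR target, read 20.6, 16.0 and 12.95 in KO differentiated libraries, against 574, 680 and 634 in WT differentiated ones. All 8 epithelial markers (such as Epcam, Krt8 and Vil1) were read in every group. Of these 8, 6 were called lower in KO than in WT differentiated organoids, against 13.9% of all genes tested (limma, Benjamini-Hochberg adjusted p under 0.05). Sums were 889852 to 936875 in KO and 1161770 to 1208820 in WT libraries. In the stem cell condition 3 were called lower, against 3.09% of all genes (sums of 447758 to 502197 in KO and 490019 to 564172 in WT). By edgeR these counts were 5 and 2. The Epcam call in the differentiated condition was lost when any 1 differentiated library was left out (adjusted p up to 0.13). In the stem cell condition it was lost without KO stem library 1 (0.17), among others. The 10 markers of blood, immune and endothelial cells summed to at most 52.2. The 10 fibroblast markers had a sum of 22036 for WT stem library 1, of 638 for KO stem library 3 and of at most 168 for the other 10 libraries, with Dcn and Lum at 0 in WT stem library 1. Krt20, a marker of mature colonocytes, read 3248, 9106 and 8947 in KO differentiated libraries and 30197, 22425 and 28678 in WT differentiated ones, and Car1, an enzyme of colonocytes, read 9858, 17097 and 28609 in KO and 90679, 60548 and 102119 in WT ones. KO library 1 was the lowest for both. These markers move with the KO and WT comparison, and their part in the GST results was not tested.

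The 10 genes together took 0.180% to 0.248% of all normalized counts in a library. Divided by the merged length of all their annotated exons, so that genes can be set side by side, Gsto1 had the highest level in all 4 groups. Gsto1 encodes an omega-class enzyme with thioltransferase and dehydroascorbate reductase activity. Its mean level per kb was 34793 in KO differentiated, 33704 in WT differentiated, 30409 in KO stem and 22593 in WT stem libraries. That was 55.5%, 49.9%, 47.8% and 38.4% of the summed level per kb of the 10 genes in those groups. Gsta4, an alpha-class enzyme specialised in 4-hydroxynonenal and other aldehydes from oxidised lipids, was second in both differentiated groups, with 24.0% in KO and 25.3% in WT. Gstp1, the pi-class enzyme of proliferating and many tumour cells, was second in both stem groups, with 21.8% in KO and 27.5% in WT. In each group the libraries of these leading 3 genes did not overlap with those of the gene next in order.

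**Figure D1:**
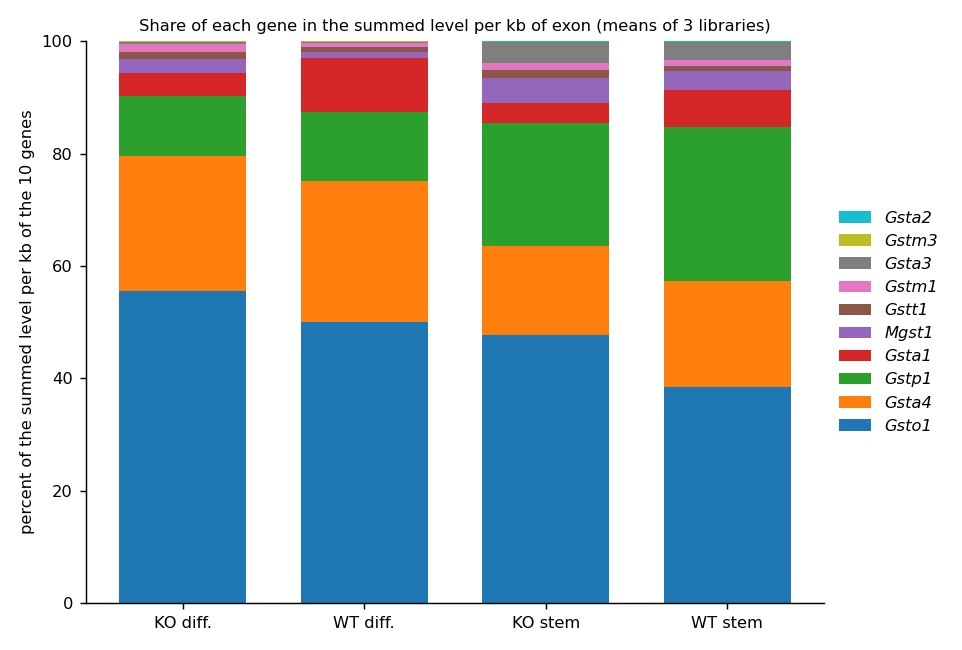
Stacked bars give the percent that each of the 10 genes takes of their summed level per kb of exon (y axis, percent), for means of 3 libraries in the KO differentiated, WT differentiated, KO stem and WT stem groups (x axis). Gsto1 takes the largest part of each bar, with 55.5% in KO differentiated and 38.4% in WT stem organoids as its highest and lowest, and the parts of Gsta4 and Gstp1 change places between the culture conditions.

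In the middle of the order some neighbours overlapped. These were Gsta1 with Mgst1 and Gstt1 with Gstm1 in KO differentiated libraries, Mgst1 with Gstt1 and Gstt1 with Gstm1 in WT differentiated libraries, Gsta3 with Gsta1 and Gstm1 with Gstt1 in KO stem libraries, and Mgst1 with Gsta3 in WT stem libraries. Gsta3 had rank 8 in KO differentiated (291 per kb) and rank 5 in KO stem libraries (2399.7 per kb). Its merged exons span 4.344 kb around a coding length of 663 bases, and the next longest member was Gsto1 at 2.023 kb. A shorter Gsta3 transcript would have a higher level per kb. Its ranks, and the shares of all 10 genes, therefore hold for the merged length only. The lowest places belonged to Gsta2 and Gstm3 in every group. Gsta2 was last in differentiated libraries (10.3 per kb in KO and 5.84 per kb in WT), and Gstm3 was last in stem libraries (5.30 per kb in KO and 16.2 per kb in WT). Their values rest on few reads. Gsta2 had 46 reads summed over the KO differentiated libraries, 16 over WT differentiated, 245 over KO stem and 222 over WT stem. Gstm3 had 114, 147, 29 and 51 in the same order of groups.

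The alpha-class genes on chromosome 9 are near copies, which bears on how far their counts can be trusted. Gsta1 (chr9:78230656-78242684, plus strand, GRCm38) and Gsta2 (chr9:78331018-78355788, minus strand) share 97.6% of their coding bases in the GENCODE vM21 transcripts. Gm10639 (chr9:78289923-78305525), a gene between them, shares 98.5% with Gsta2 and 97.0% with Gsta1. Gm3776, which shares 99.7% with Gsta1, was not found in the expression table by its GENCODE vM21 identifier. Gstp1 (chr19:4035407-4037985) and its neighbour Gstp2 share 98.1%. Reads of such copies could be split between them in the counting, so the levels of these genes are uncertain with respect to each other. Whether reads of Gm3776 were counted for Gsta1 was not tested. Gsta3 on chromosome 1 (chr1:21240589-21265661) shares at most 75.3% with any other GST gene considered. Gstm3 (chr3:107963696-107969283) shares at most 84.7%, with Gstm2.

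The stretches just before the RefSeq start sites of Gsta1, Gsta2 and Gm10639 are shown because these 3 genes are near copies whose counts did not all move together. They cover 237, 227 and 245 bases that lie in no annotated exon, at chr9:78230419-78230655 (plus strand), chr9:78347169-78347395 (minus strand) and chr9:78289678-78289922 (plus strand) of GRCm38.p6 (RefSeq). Capitals mark the longest run of bases shared by all 3, which is 18 bases long.
Gsta1: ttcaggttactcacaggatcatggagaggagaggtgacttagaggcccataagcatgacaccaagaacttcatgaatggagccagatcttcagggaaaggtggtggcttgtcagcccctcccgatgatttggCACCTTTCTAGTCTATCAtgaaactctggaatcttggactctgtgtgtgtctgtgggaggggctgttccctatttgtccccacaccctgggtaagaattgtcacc
Gsta2: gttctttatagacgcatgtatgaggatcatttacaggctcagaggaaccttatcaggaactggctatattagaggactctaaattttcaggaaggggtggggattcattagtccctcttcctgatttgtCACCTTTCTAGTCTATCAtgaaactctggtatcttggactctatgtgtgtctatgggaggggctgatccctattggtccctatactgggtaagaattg
Gm10639: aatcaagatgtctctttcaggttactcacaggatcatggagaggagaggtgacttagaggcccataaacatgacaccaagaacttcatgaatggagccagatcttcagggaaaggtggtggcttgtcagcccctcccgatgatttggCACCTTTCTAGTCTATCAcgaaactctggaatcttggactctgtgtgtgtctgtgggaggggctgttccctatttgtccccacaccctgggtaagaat
Over the whole 250 bases, aligned with gaps, Gsta1 and Gsta2 were 70.5% identical.

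RefSeq promoter entries were found for 9 of the 10 genes, in 11 entries. The 250 bases before each start were searched on both strands for TGACNNNGC, the core of the antioxidant response element, for TGAGNNNGC, a variant of it that overlaps the AP-1 site, and for GCGTG, the core to which AhR and ARNT bind, which can overlap either. Of 32851 promoters of that length, 10.2% held TGACNNNGC, 14.4% held TGAGNNNGC and 28.2% held GCGTG. At least 1 match was found before 6 of the 9 genes, and none before Gsta1, Gstm3 and Gsto1. The share of all promoters with any of these motifs was not computed. For Gstt1, Gstm3 and Gstp1 the RefSeq start lay inside the annotated gene, 853, 109 and 73 bases from the GENCODE start. The same held for 1 Gstm1 entry (155 bases) and both Mgst1 entries (72 and 217 bases). All other starts lay within 13 bases of a GENCODE start. Gsta3 had TGACATTGC beginning 121 bases before its start, and Mgst1 had TGACCGTGC on the other strand. Gstp1 had TGAGTCAGC and TGAGGACGC, and Gstt1 had TGAGAGAGC. GCGTG was found before Gsta2, Gstm1 and Gstp1. The match before Gsta2 began 7 bases from its start, past the end of its printed stretch, which was cut at an annotated exon. The sequences before Gsta3 (chr1:21240335-21240584, plus strand) and Gstm1 (chr3:108017974-108018223, minus strand) are shown because both genes were higher in KO than in WT differentiated organoids, with the matches in capitals.
Gsta3: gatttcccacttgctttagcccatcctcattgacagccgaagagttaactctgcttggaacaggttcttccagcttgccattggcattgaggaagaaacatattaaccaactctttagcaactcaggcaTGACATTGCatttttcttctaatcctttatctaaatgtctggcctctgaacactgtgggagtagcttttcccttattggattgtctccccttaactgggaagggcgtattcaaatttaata
Gstm1: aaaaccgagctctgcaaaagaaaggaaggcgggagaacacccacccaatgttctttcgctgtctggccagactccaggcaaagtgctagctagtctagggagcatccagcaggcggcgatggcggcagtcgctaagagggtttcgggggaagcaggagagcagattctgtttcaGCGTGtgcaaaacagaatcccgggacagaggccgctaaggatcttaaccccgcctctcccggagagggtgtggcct
A match is a run of letters and not a bound site.

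KO was first set against WT in the differentiated condition, to see which GST genes differ where the receptor is deficient. Mgst1, Gstm1 and Gsta3 rose and Gsta1, Gstm3 and Gstp1 fell in KO organoids, and Gsta2, Gsta4, Gstt1 and Gsto1 did not pass the test. These were 3 genes called higher, against 13.8% of the 14856 genes tested, and 3 called lower, against 13.9% (limma, Benjamini-Hochberg adjusted p under 0.05). The median log2 change of the 10 genes was 0.27, and that of all genes tested was 0.02.

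Mgst1, the membrane-bound enzyme that also reduces lipid hydroperoxides, read 3373, 3064 and 2588 in KO differentiated libraries, against 1263, 1503 and 1615 in WT differentiated ones. Every KO library was above every WT library. The KO mean was 2.06 times the WT mean (log2 change 1.04 ± 0.12 (SE), adjusted p = 4.7e-04). Gstm1, a mu-class enzyme, read 1053, 1122 and 1396 in KO, against 697, 644 and 729 in WT differentiated libraries. The groups did not overlap, at 1.72 times the WT mean (log2 change 0.78 ± 0.10, adjusted p = 6.2e-04). Gsta3, an alpha-class enzyme known in mouse liver for conjugating the aflatoxin epoxide, read 1174, 1176 and 1448 in KO, against 598, 794 and 881 in WT. All 3 KO libraries were again higher, at 1.67 times the WT mean (log2 change 0.75 ± 0.15, adjusted p = 0.0050).

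Gsta1, another alpha-class enzyme, read 1362, 3016 and 3009 in KO differentiated libraries, against 5851, 5681 and 7014 in WT differentiated ones. KO library 1 was the lowest, and it was also the library with the lowest Krt20 and Car1, while the other KO libraries were still below every WT library. Gsta1 fell by 1.41 ± 0.28 on the log2 scale (adjusted p = 0.0051), and without KO library 1 it fell by 1.03 (adjusted p = 0.0069). Gm10639, its near copy, read 226, 568 and 529 in KO, against 1089, 1015 and 1179 in WT. It fell by 1.42 ± 0.29 on the log2 scale (adjusted p = 0.0060), with the same library lowest.

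Gstm3, a low mu-class member, read 20.6, 26.7 and 42.3 in KO differentiated libraries, against 64.8, 43.0 and 59.1 in WT differentiated ones. The highest KO library almost reached the lowest WT library, and the fall of 0.92 ± 0.29 on the log2 scale (adjusted p = 0.040) was not called without KO differentiated library 1 (adjusted p = 0.15) or 2 (0.097), or without WT differentiated library 1 (0.13) or 3 (0.12). Gstp1 read 9386, 10971 and 11211 in KO, against 12742, 13113 and 12374 in WT. Its fall was small, 0.28 ± 0.07 on the log2 scale (adjusted p = 0.018), and was not called without KO differentiated library 1 (log2 change -0.20, adjusted p = 0.062) or without WT differentiated library 1 (0.054) or 2 (0.058). Without KO differentiated library 1, therefore, 3 genes were called higher and 1 lower. Over all genes that fit called 1201 higher and 1220 lower, against 2045 and 2058 with all 12 libraries.

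Gsta2 read 12.2, 10.7 and 13.6 in KO differentiated libraries, against 6.87, 2.39 and 11.4 in WT differentiated ones. The groups overlapped at these low levels (log2 change 0.93 ± 0.41, adjusted p = 0.11), and the difference was called only without WT differentiated library 3, the library with the fewest reads of all (log2 change 1.35, adjusted p = 0.039). Gstt1, the theta-class enzyme that acts on small halogenated compounds, read 1703, 1144 and 1096 in KO, against 719, 1101 and 974 in WT. KO library 1 stood above the rest (log2 change 0.49 ± 0.23, adjusted p = 0.14). Gsta4 and Gsto1, the genes with most RNA, were the least apart. Gsta4 read 15294, 20455 and 21529 in KO, against 20298, 22640 and 21851 in WT (log2 change -0.19 ± 0.12, adjusted p = 0.25). Gsto1 read 67722, 73448 and 69990 in KO, against 62757, 75398 and 66397 in WT (log2 change 0.05 ± 0.12, adjusted p = 0.78).

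**Figure D2:**
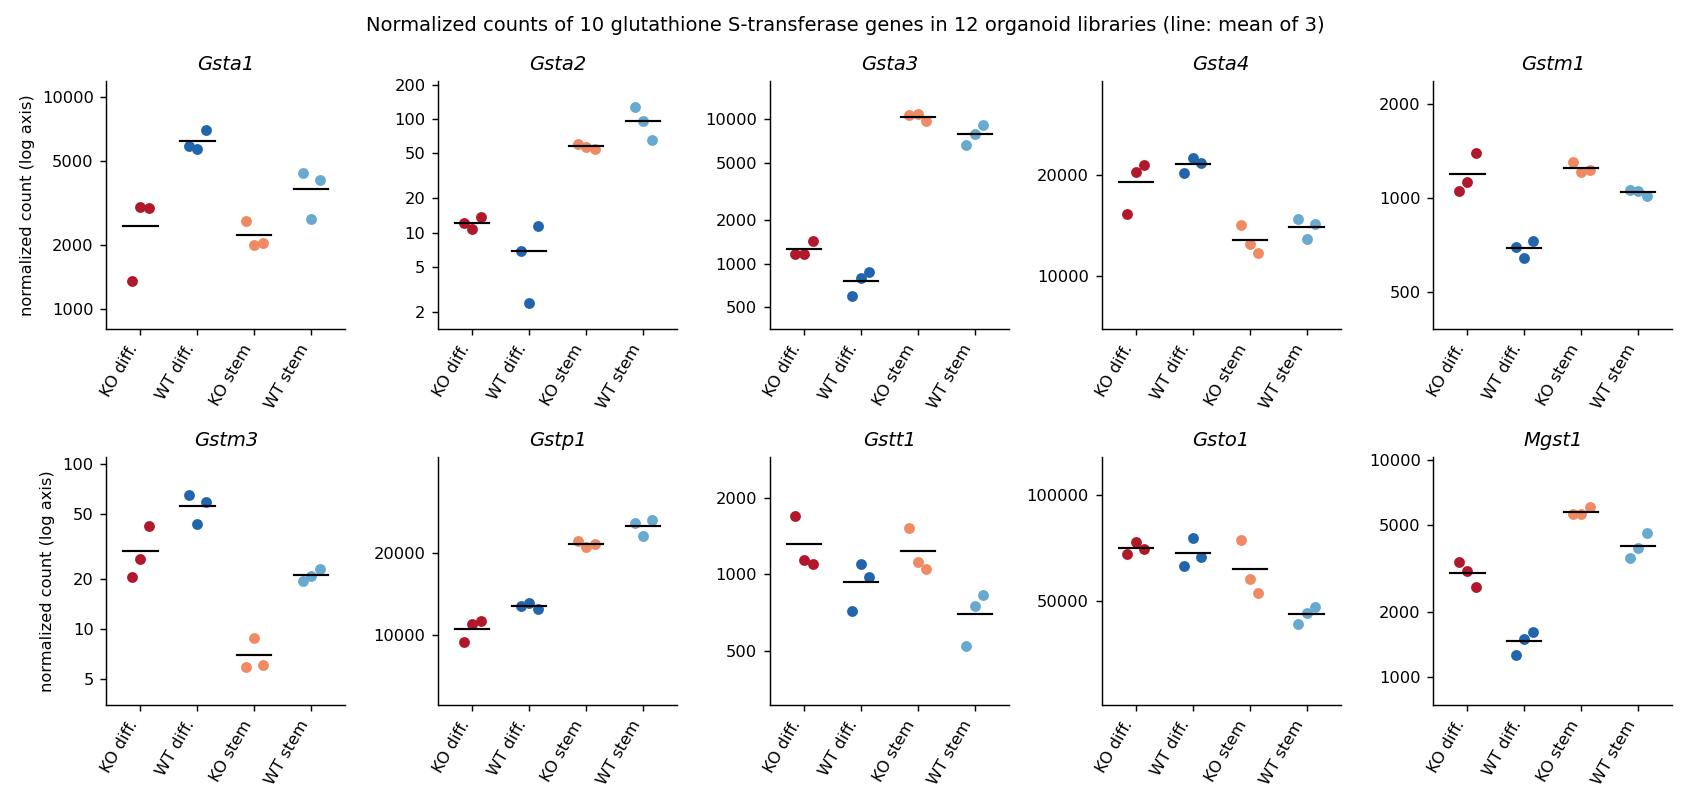
Each panel gives the normalized count of 1 GST gene (y axis, log scale) in the 12 libraries, 3 points for each group, with the mean as a line, and the groups run from KO differentiated and WT differentiated to KO stem and WT stem (x axis). Gsta1 lies lower in KO than in WT libraries in both conditions, Mgst1 lies higher, and the 3 Gsta2 points of WT differentiated organoids spread between 2.39 and 11.4.

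In the stem cell condition only Mgst1 rose and only Gstm3 fell among the 10 genes, by limma over all 12 libraries. That is 1 gene called higher, against 3.48% of all genes tested, and 1 called lower, against 3.09%. Over all genes this comparison split into 517 higher and 459 lower calls with limma, but 635 and 308 with edgeR and 840 and 1144 with DESeq2. The median log2 change of the 10 genes was 0.06, and that of all genes tested was -0.04. Mgst1 read 5618, 5604 and 6066 in KO stem libraries, against 3533, 3920 and 4578 in WT stem ones. The groups did not overlap, at 1.44 times the WT mean (log2 change 0.53 ± 0.12, adjusted p = 0.026). The call did not hold when WT stem library 1, with its fibroblast markers, was left out (log2 change 0.44, adjusted p = 0.052), nor without WT stem library 2 (adjusted p = 0.075) or KO stem library 1 (0.084), 2 (0.075) or 3 (0.068). Gstm3 read 5.93, 8.81 and 6.11 in KO stem libraries, against 19.6, 21.1 and 23.1 in WT stem ones. It fell, with a log2 change of -1.50 ± 0.29 (adjusted p = 0.013), at 29 reads in all KO stem libraries together, and was not called without KO stem library 1 (adjusted p = 0.062).

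None of the other members passed the threshold in this comparison. Gsta1 read 2610, 2014 and 2052 in KO stem libraries, against 4364, 2659 and 4045 in WT stem ones (log2 change -0.71 ± 0.28, adjusted p = 0.15). Gsto1 read 74281, 57519 and 52749 in KO, against 42974, 46153 and 47987 in WT (log2 change 0.41 ± 0.12, adjusted p = 0.057), with KO stem library 1 far above the others. Gstt1 read 1528, 1118 and 1055 in KO, against 523, 752 and 832 in WT (log2 change 0.82 ± 0.23, adjusted p = 0.059). For both genes WT stem library 1 was the lowest of all libraries. The next genes were closer. Gsta3 read 10671, 10832 and 9770 in KO stem, against 6634, 7892 and 9121 in WT stem libraries (log2 change 0.41 ± 0.15, adjusted p = 0.12). Gstm1 read 1307, 1207 and 1228 in KO, against 1058, 1049 and 1018 in WT (log2 change 0.26 ± 0.10, adjusted p = 0.14). Gstp1 read 22009, 20945 and 21436 in KO, against 25740, 22984 and 26415 in WT (log2 change -0.22 ± 0.07, adjusted p = 0.10). Gsta2 was lower in KO than in WT here, and higher in KO in the differentiated condition, without a call in either. It read 60.9, 57.2 and 55.0 in KO stem, against 127, 96.4 and 65.8 in WT stem libraries (log2 change -0.68 ± 0.41, adjusted p = 0.33). Gsta4 differed least, with 14198, 12420 and 11708 in KO and 14773, 12890 and 14326 in WT (log2 change -0.13 ± 0.12, adjusted p = 0.52). DESeq2 on the recovered reads called 6 of the 10 genes in this comparison, adding Gsto1 (adjusted p = 0.0074), Gstt1 (0.0096), Gstp1 (0.041) and Gsta1 (0.048) to Mgst1 and Gstm3, and edgeR called 3, adding Gsto1 (0.038). Single libraries also decided some of these calls by limma. Without KO differentiated library 1, Gsta1 (adjusted p = 0.031), Gstt1 (0.035) and Gstp1 (0.041) were called, as was Gsto1 without KO stem library 3 (0.029).

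**Figure D3:**
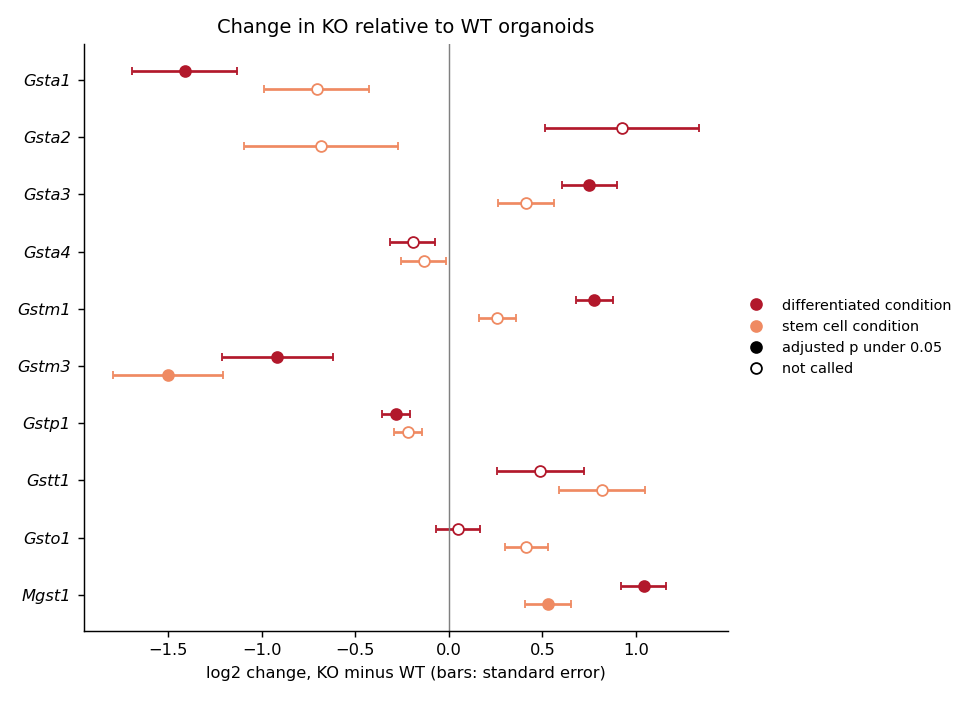
Points give the log2 change in KO relative to WT organoids (x axis) for each of the 10 genes (y axis) in the differentiated condition (dark) and in the stem cell condition (light), with the standard error as a bar, and filled points passed an adjusted p of 0.05. Mgst1 (1.04 and 0.53) and Gstm3 (-0.92 and -1.50) are filled in both conditions, and Gsta2 is the gene whose points lie on both sides of 0 by more than their standard errors.

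The test of the difference between the KO effects of the conditions called 1 of the 10 genes, with Gstm1 more raised in KO in the differentiated condition (difference 0.52 ± 0.14 on the log2 scale, adjusted p = 0.043). Calls for such a difference covered 5.12% of all genes tested in the higher direction and 3.58% in the lower, and no member was called lower by limma, edgeR or DESeq2, with 1 at an unadjusted p under 0.05. The Gstm1 call was lost without any 1 of 11 libraries, with adjusted p between 0.027 and 0.099 over the 12 ways to leave a library out, and KO differentiated library 1 was the exception. With the replicate number as a block within genotype, its adjusted p was 0.061. Mgst1 had a difference of 0.51 ± 0.17 (adjusted p = 0.083) that passed when WT stem library 1 was left out (adjusted p = 0.047), and Gsta2 had one of 1.61 ± 0.58 (adjusted p = 0.10). For Gsta1 the difference was -0.70 ± 0.40 (adjusted p = 0.28), so its change in the differentiated condition was not shown to exceed that in the stem cell condition.

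The differentiated condition was then set against the stem cell condition within each genotype. In KO organoids 2 of the 10 genes rose on differentiation, against 34.1% of all genes tested, and 4 fell, against 33.6%. In WT organoids 4 rose, against 36.3% of all genes, and 5 fell, against 35.9%. Median log2 changes of the 10 genes were -0.01 in KO and -0.09 in WT organoids, and that of all genes was 0.01 in each. Gsta4 and Gstm3 rose, and Gsta2, Gsta3, Gstp1 and Mgst1 fell, in both genotypes.

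Gsta3 had the largest fall that rests on ample reads. It went down to between 1174 and 1448 in KO differentiated libraries, against 9770 to 10832 in KO stem ones, 0.121 of the stem mean (log2 change -3.05 ± 0.15, adjusted p = 1.7e-08). In WT organoids it read 598 to 881 in differentiated and 6634 to 9121 in stem libraries, 0.0962 of the stem mean (log2 change -3.38 ± 0.15, adjusted p = 4.2e-09). Gsta2 fell as well, to 0.211 of the stem mean in KO (log2 change -2.16 ± 0.41, adjusted p = 6.2e-04) and 0.0712 in WT organoids (log2 change -3.77 ± 0.41, adjusted p = 6.2e-06). Its near copy Gsta1 did not follow it. Gsta1 rose by 0.77 ± 0.28 on the log2 scale in WT organoids (adjusted p = 0.028), a call that was lost without WT stem library 2 (adjusted p = 0.11) or WT differentiated library 1 (0.051) or 3 (0.088). In KO organoids Gsta1 had a log2 change of 0.07 ± 0.28 (adjusted p = 0.85). Gm10639 rose by 1.25 ± 0.29 in WT organoids (adjusted p = 0.0024), and in KO organoids it had a log2 change of 0.53 ± 0.29 (adjusted p = 0.13) that was called by DESeq2 (0.039) and without KO differentiated library 1 (log2 change 0.96, adjusted p = 5.6e-04). Without that library Gsta1 had 0.45 in KO organoids (adjusted p = 0.064).

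Gstp1 fell on differentiation by almost the same step in both genotypes. It read 9386 to 11211 in KO differentiated against 20945 to 22009 in KO stem libraries (log2 change -1.03 ± 0.07, adjusted p = 3.2e-07), and 12374 to 13113 in WT differentiated against 22984 to 26415 in WT stem libraries (log2 change -0.97 ± 0.07, adjusted p = 3.4e-07). The difference between these changes was -0.06 ± 0.11 (adjusted p = 0.75). Mgst1 fell by 0.94 ± 0.12 in KO (adjusted p = 3.1e-05) and by 1.46 ± 0.12 in WT organoids (adjusted p = 6.5e-07). Gstm1 fell in WT organoids alone among the calls, by 0.60 ± 0.10 (adjusted p = 1.8e-04), with a log2 change of -0.08 ± 0.10 in KO organoids (adjusted p = 0.50).

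Gsta4 rose by 0.57 ± 0.12 on the log2 scale in KO (adjusted p = 0.0013) and by 0.63 ± 0.12 in WT organoids (adjusted p = 5.7e-04). Its lowest differentiated library, KO library 1 at 15294, was still above the highest stem library at 14773. Gstm3 had the steepest rise, to 4.30 times the stem mean in KO (log2 change 1.91 ± 0.29, adjusted p = 1.3e-04) and 2.62 times in WT organoids (log2 change 1.33 ± 0.29, adjusted p = 0.0016). It was also the only member called in all 4 comparisons besides Mgst1. Gsto1 rose in WT organoids by 0.57 ± 0.12 (adjusted p = 8.3e-04), and had a log2 change of 0.21 ± 0.12 in KO organoids (adjusted p = 0.13), which was called without KO stem library 1 (log2 change 0.35, adjusted p = 0.0059). Gstt1 was called in neither genotype by this fit, with 0.08 ± 0.23 in KO (adjusted p = 0.77) and 0.41 ± 0.23 in WT organoids (adjusted p = 0.13). With the replicate number as a block within genotype, limma called its rise in WT organoids (adjusted p = 0.0021).

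**Figure D4:**
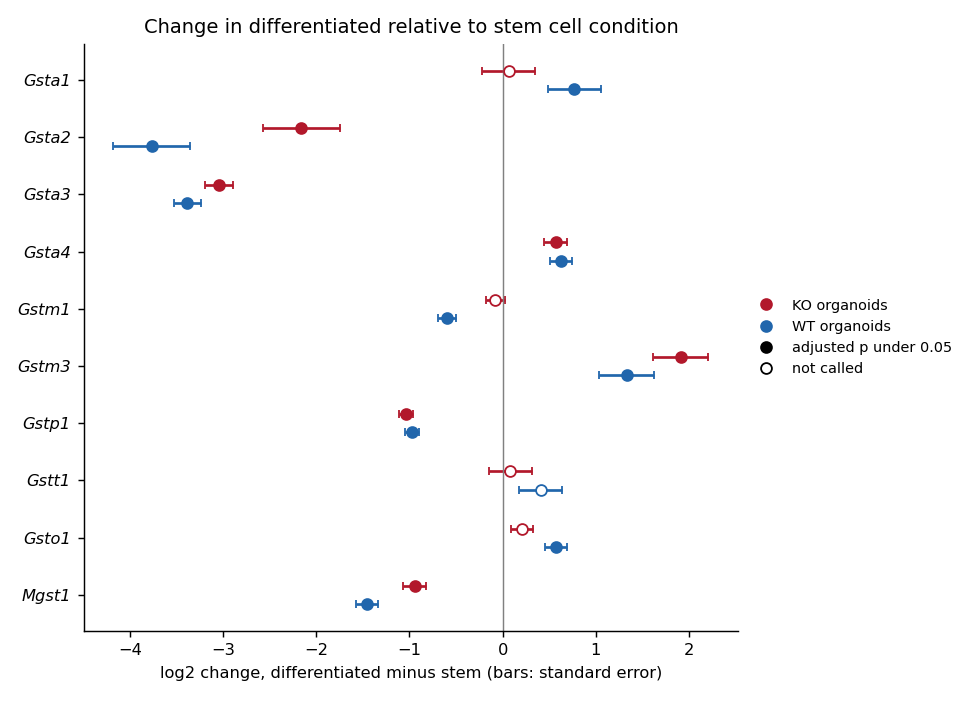
Points give the log2 change in the differentiated relative to the stem cell condition (x axis) for each of the 10 genes (y axis) in KO organoids (red) and WT organoids (blue), with the standard error as a bar, and filled points passed an adjusted p of 0.05. Gsta3 lies lowest in KO organoids (-3.05) and Gsta2 in WT organoids (-3.77), while Gstm3 lies highest in both (1.91 in KO and 1.33 in WT).

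Of 20 further genes of the cytosolic, kappa and microsomal GST families, 18 passed the filter on low counts, Gstt4 did not, and Gm3776 was not found in the expression table. In the differentiated condition 3 of the 18 rose, against 13.8% of all genes tested, and 5 fell, against 13.9%, in KO organoids. Gstm2 and Gstm7, neighbours of Gstm1 in the mu cluster on chromosome 3, were among those that rose. Gstm2 read 651, 492 and 440 in KO differentiated, against 253, 264 and 277 in WT differentiated libraries (log2 change 0.97 ± 0.22, adjusted p = 0.0096). Gstm7 rose by 0.93 ± 0.22 (adjusted p = 0.010). Ltc4s, which makes the leukotriene C4, rose by 1.49 ± 0.38 (adjusted p = 0.015) at a mean of 63.0 in KO and 21.4 in WT libraries, and was not called without KO differentiated library 1 (adjusted p = 0.062) or WT differentiated library 1 (0.060). The falls were those of Gm10639, given above, Gstk1, Mgst3, Mgst2 and Gstp2. Mgst3, a microsomal enzyme with peroxidase activity, read 5992, 8857 and 8699 in KO, against 13840, 11894 and 12452 in WT (log2 change -0.72 ± 0.13, adjusted p = 0.0029). Gstk1, a kappa-class enzyme of mitochondria and peroxisomes, had a log2 change of -0.78 ± 0.15 (adjusted p = 0.0040), Mgst2 of -0.71 ± 0.15 (adjusted p = 0.0069) and Gstp2 of -0.60 ± 0.08 (adjusted p = 0.0010).

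In the stem cell condition 4 of the 18 rose, against 3.48% of all genes tested, and 2 fell, against 3.09%, in KO organoids. Gstm2 had the largest change, with 1094, 818 and 526 in KO stem, against 246, 255 and 282 in WT stem libraries (log2 change 1.58 ± 0.22, adjusted p = 0.0022). Gstm7 (0.92 ± 0.22, adjusted p = 0.029), Gstm4 (0.47 ± 0.10, adjusted p = 0.021) and Gstt3 (0.50 ± 0.13, adjusted p = 0.044) were called as well. When 1 library was left out, the Gstt3 call held in 4 of 12 fits (adjusted p up to 0.17) and was lost without each of KO stem libraries 1 and 2, WT stem libraries 1 and 2, KO differentiated library 2 and WT differentiated libraries 1, 2 and 3. The Gstm7 call held in 8 (up to 0.13) and was lost without KO stem libraries 1 or 2 or WT stem libraries 1 or 2, and the Gstm4 call held in 10 (up to 0.085) and was lost without KO stem libraries 1 or 2. Gstp2 fell by 0.48 ± 0.08 (adjusted p = 0.0070) and Mgst3 by 0.68 ± 0.13 (adjusted p = 0.010). Gstm2, Gstm7, Gstp2 and Mgst3 were thus called in the same direction in both conditions. Over the 28 GST genes tested, 6 rose and 8 fell in the differentiated condition (against 13.8% and 13.9% of all genes), and 5 rose and 3 fell in the stem cell condition (against 3.48% and 3.09%). The 8 that fell include the near copies Gsta1 with Gm10639 and Gstp1 with Gstp2, whose calls may not be independent. Leaving out WT stem library 1, with its fibroblast markers, took the 5 that rose in the stem cell condition to 2, both among the 18. Over all genes that fit called more genes higher, 656 against 517 with all 12 libraries. The KO effect differed between the conditions for Gstk1 (-0.82 ± 0.21, adjusted p = 0.036) and Mgst2 (-0.76 ± 0.21, adjusted p = 0.049), both lower in KO in the differentiated condition and close to WT in the stem cell condition, 2 of the 18 against 3.58% of all genes with such a negative difference.

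**Figure D5:**
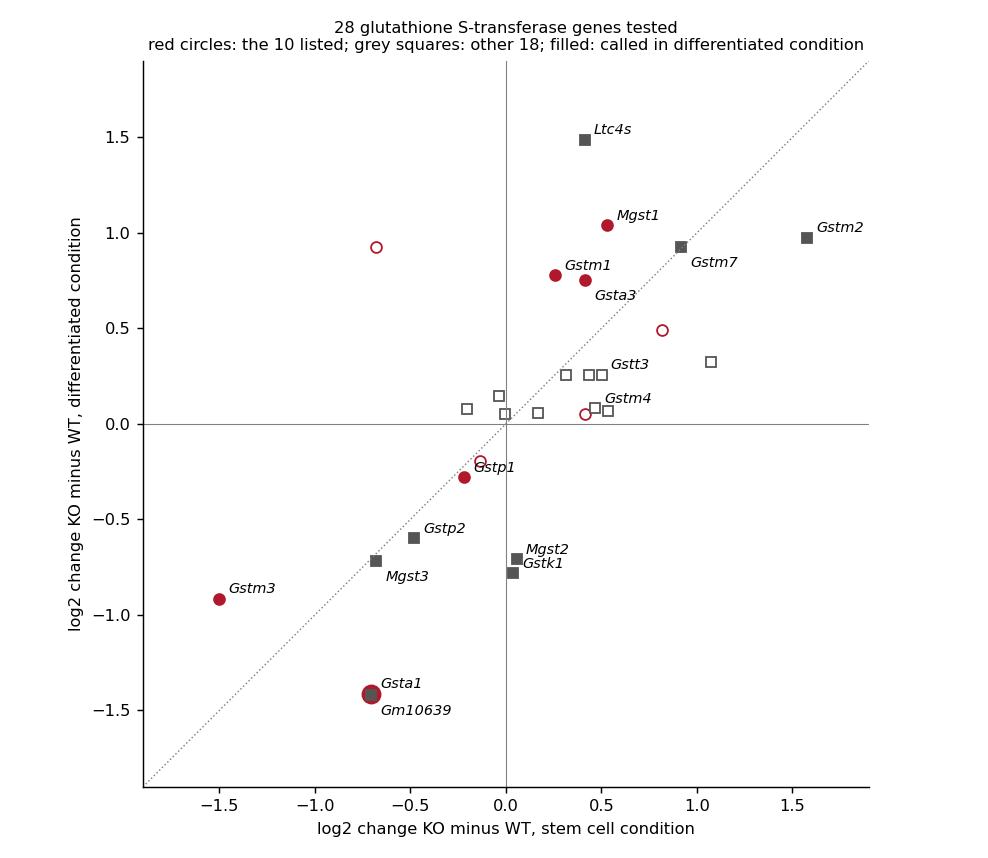
Each point is 1 of the 28 GST genes tested, with its log2 change in KO relative to WT organoids in the stem cell condition (x axis) and in the differentiated condition (y axis), as circles for the 10 listed genes and squares for the other 18, filled where called in the differentiated condition and named where called in either. Gstk1 and Mgst2 lie near 0 on the x axis and at -0.78 and -0.71 on the y axis, the points of Gsta1 and Gm10639 lie on each other, and the dotted line marks equal change.

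On differentiation 4 of these 18 genes rose and 7 fell in KO organoids (against 34.1% and 33.6% of all genes tested), and 7 rose and 5 fell in WT organoids (against 36.3% and 35.9%). Mgst3 rose by 1.88 ± 0.13 in KO (adjusted p = 1.8e-07) and 1.92 ± 0.13 in WT organoids (adjusted p = 9.9e-08). Mgst2 rose by 1.31 ± 0.15 in KO (adjusted p = 1.3e-05) and 2.08 ± 0.15 in WT organoids (adjusted p = 2.1e-07). Both microsomal genes therefore went the other way from Mgst1. Gstp3 rose in both genotypes, by 0.72 ± 0.20 in KO (adjusted p = 0.0072) and 0.54 ± 0.20 in WT (adjusted p = 0.030), the rise in WT not being called without WT stem library 1 (log2 change 0.28, adjusted p = 0.10) or WT differentiated library 1 (0.053), 2 (0.087) or 3 (0.053). Gstp2 fell in both, with log2 changes of -0.35 ± 0.08 in KO (adjusted p = 0.0028) and -0.23 ± 0.08 in WT (adjusted p = 0.024). In WT its groups overlapped, and the call was lost without WT stem library 2 (0.077) or 3 (0.11) or WT differentiated library 1 (0.077) or 3 (0.057). Hpgds, the haematopoietic prostaglandin D synthase, was read in differentiated libraries (7.48 to 18.4 in KO and 10.7 to 13.6 in WT) and had 2 reads in all KO stem and 1 in all WT stem libraries. Ptges, a prostaglandin E synthase, rose by 1.60 ± 0.35 in WT organoids (adjusted p = 0.0016), and by 1.05 without WT stem library 1 (adjusted p = 9.7e-05). In KO organoids Ptges read 586 to 770 in differentiated and 345 to 447 in stem libraries, without overlap. The difference between its changes in the genotypes was not called. Gstm4 rose in WT organoids by 0.30 ± 0.10 (adjusted p = 0.017, and 0.052 to 0.062 without WT stem library 1 or WT differentiated library 2 or 3). Gstm7, Gstm5 and Gstz1, a zeta-class enzyme of tyrosine breakdown, fell in both genotypes. Gstm7 had a log2 change of -1.11 ± 0.22 in each (adjusted p = 7.5e-04 in KO and 6.2e-04 in WT). Gstm5 had -0.84 ± 0.10 in KO (adjusted p = 2.5e-05) and -0.78 ± 0.10 in WT (adjusted p = 3.5e-05), and Gstz1 had -0.43 ± 0.08 in KO (adjusted p = 5.8e-04) and -0.71 ± 0.08 in WT (adjusted p = 8.7e-06). Gstm2 (log2 change -0.58), Gstm6 (-0.61) and Gstk1 (-0.50) were called lower in KO organoids and not in WT ones, a difference that was called for Gstk1 alone. The Gstm2 groups overlapped in KO, and its call was lost without KO stem library 1 (adjusted p = 0.17) or 2 (0.095) or KO differentiated library 2 (0.095) or 3 (0.13). The Gstm6 call was lost without KO stem library 1 (0.063) or 3 (0.10) or KO differentiated library 1 (0.081), 2 (0.057) or 3 (0.058). Ltc4s fell in WT organoids (log2 change -0.97, adjusted p = 0.036), a call lost without WT stem library 2 (0.12) or 3 (0.056) or WT differentiated library 1 (0.13) or 2 (0.074).

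Genes that supply glutathione were followed as a list of 9. None was called between KO and WT in the stem cell condition by limma, edgeR or DESeq2, and none had an unadjusted p under 0.05, though Gclm was called lower in KO without WT stem library 1 (adjusted p = 0.033). In the differentiated condition 3 of the 9 fell, against 13.9% of all genes tested, and 1 rose, against 13.8%, in KO organoids. Without KO differentiated library 1, 2 of the 9 were called lower, and 1220 of all genes were, against 2058 with all 12 libraries. Gclm, the modifier subunit of the rate-limiting ligase, read 4167, 4707 and 4908 in KO differentiated, against 5966, 6207 and 6921 in WT differentiated libraries (log2 change -0.47 ± 0.11, adjusted p = 0.0097). Gss, glutathione synthetase, fell by 0.36 ± 0.08 (adjusted p = 0.0077), and Ggct, an enzyme of glutathione breakdown, rose by 0.58 ± 0.13 (adjusted p = 0.0097). The other gene called lower was Gclc, the catalytic subunit of that ligase (log2 change -0.29 ± 0.09, adjusted p = 0.039), and its call held in 4 of the 12 fits that left out 1 library, those without KO stem library 1 or 3 or WT stem library 1 or 2. On differentiation 7 fell and 1 rose in KO organoids (against 33.6% and 34.1% of all genes), and 6 fell and 1 rose in WT organoids (against 35.9% and 36.3%). Chac1, which degrades glutathione in the cytosol, read 184 to 274 in KO differentiated against 1105 to 2445 in KO stem libraries (log2 change -2.97 ± 0.43, adjusted p = 8.2e-05), and the log2 change in WT organoids was -2.90 ± 0.43 (adjusted p = 8.0e-05). Oplah, which recycles 5-oxoproline, rose by 1.59 in KO and 1.65 in WT organoids, and Ggct had log2 changes of -1.12 in KO and -1.60 in WT organoids.

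Genes for export of conjugates and for their further processing to mercapturates formed a list of 11, of which 9 passed the filter. In the differentiated condition 4 of the 9 fell in KO organoids, against 13.9% of all genes tested, and none rose by limma, edgeR or DESeq2 or at an unadjusted p under 0.05. Dpep1, the dipeptidase that acts after removal of the glutamyl group, read 83.0, 170 and 240 in KO differentiated, against 1166, 594 and 1379 in WT differentiated libraries (log2 change -2.70 ± 0.40, adjusted p = 0.0013). Ggt1, which removes that group, had 15 reads in all KO differentiated and 58 in all WT differentiated libraries (log2 change -2.44 ± 0.61, adjusted p = 0.014), and was not called without KO differentiated library 1 (adjusted p = 0.054) or WT differentiated library 3 (0.059). Abcc3, a basolateral conjugate pump, fell by 0.49 ± 0.15 (adjusted p = 0.030) and was not called without KO differentiated library 1 (adjusted p = 0.10) or WT differentiated library 1 (0.065), 2 (0.075) or 3 (0.084). Without KO differentiated library 1, 2 of the 9 were called lower, and 1220 of all genes were, against 2058 with all 12 libraries. In the stem cell condition Dpep1 (log2 change -2.77 ± 0.40, adjusted p = 0.0025) and Acy1 (-0.38 ± 0.09, adjusted p = 0.031) fell, against 3.09% of all genes. None was called higher by limma with all 12 libraries. However, 1 was called higher by edgeR, by DESeq2, and by limma without WT stem library 1 or without KO differentiated library 1. The Acy1 call was lost without KO stem library 1 (0.096), 2 (0.12) or 3 (0.053), WT stem library 1 (0.052) or 3 (0.059) or WT differentiated library 1 (0.052). On differentiation 3 rose and 2 fell in KO organoids (against 34.1% and 33.6% of all genes), and 6 rose and 2 fell in WT organoids (against 36.3% and 35.9%). Dpep1 rose by 4.55 ± 0.40 in KO and 4.49 ± 0.40 in WT organoids, and Acy3, an aminoacylase, by 1.64 ± 0.11 in KO. Abcc2, the apical conjugate pump, had 27.8 to 65.4 normalized counts in KO differentiated libraries and no reads in KO stem ones, and 80.9 to 159 normalized counts in WT differentiated libraries and 3 reads in all WT stem ones. Ggt1 rose in WT organoids, with 15.5 to 29.5 in differentiated libraries and 2 reads in all stem libraries.

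Of 9 transcription regulators of GST genes, 4 fell and 1 rose in KO organoids in the differentiated condition (against 13.9% and 13.8% of all genes tested), and 2 fell and 1 rose in the stem cell condition (against 3.09% and 3.48%). Nr1i2, the pregnane X receptor, read 464, 732 and 884 in KO differentiated, against 1668, 1273 and 1583 in WT differentiated libraries (log2 change -1.16 ± 0.31, adjusted p = 0.019). That call was lost without KO differentiated library 1 (0.079) or WT differentiated library 1 (0.065) or 3 (0.066). In stem libraries Nr1i2 read 13.5, 6.605 and 9.16 in KO, against 39.1, 70.9 and 72.7 in WT (log2 change -2.52 ± 0.31, adjusted p = 9.7e-04). Hnf4a, a factor of differentiated enterocytes, fell, with log2 changes of -0.80 ± 0.15 in the differentiated (adjusted p = 0.0040) and -0.65 ± 0.15 in the stem cell condition (adjusted p = 0.028). In the stem cell condition the Hnf4a call was lost without KO stem library 1 (0.10) or 2 (0.10) or WT stem library 2 (0.089) or 3 (0.063). Cdx2, a factor of intestinal identity, fell by 0.66 ± 0.16 in the differentiated condition (adjusted p = 0.011). The gene that rose was Ahr (log2 change 0.63 ± 0.08 in the differentiated condition and 0.57 ± 0.08 in the stem cell condition). On differentiation 7 of the 9 rose in KO organoids, against 34.1% of all genes, and 8 in WT organoids, against 36.3%, and none fell by limma, edgeR or DESeq2 or at an unadjusted p under 0.05. In KO organoids edgeR called 6. The Cdx2 call there (log2 change 0.38) was lost without KO stem library 1 (adjusted p = 0.13) or KO differentiated library 3 (0.19), among others. The Nr1i3 call in KO was lost without KO stem library 3 (0.081) or KO differentiated library 2 (0.12). When WT stem library 1 was left out, Arnt, the partner of AhR, was called lower in both (log2 change -0.20 in KO, adjusted p = 0.0041, and -0.14 in WT, adjusted p = 0.036). Nr1i2 rose by 6.01 ± 0.31 in KO and 4.65 ± 0.31 in WT organoids, and Hnf4a by 1.53 ± 0.15 in KO and 1.69 ± 0.15 in WT organoids. Nr1i3, the related CAR receptor, read 1.52 to 12.8 in KO differentiated and 8.36 to 29.5 in WT differentiated libraries, and had 2 reads in all KO stem and 1 in all WT stem libraries.

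AhR target genes outside the family were lower in KO organoids, 3 of the 4 tested in each condition (against 13.9% of all genes in the differentiated and 3.09% in the stem cell condition), and none rose by limma, edgeR or DESeq2 or at an unadjusted p under 0.05. Cyp1b1 had a log2 change of -5.19 ± 0.23 in the differentiated (adjusted p = 4.4e-07) and -4.35 ± 0.23 in the stem cell condition (adjusted p = 2.0e-06). Nqo1, a quinone reductase shared with the NRF2 response, had -1.15 ± 0.19 in the differentiated (adjusted p = 0.0025) and -1.87 ± 0.19 in the stem cell condition (adjusted p = 3.1e-04). Ugt1a6a had log2 changes of -2.43 ± 0.48 in the differentiated (adjusted p = 0.0051) and -4.72 ± 0.48 in the stem cell condition (adjusted p = 2.8e-04), with counts that are uncertain because the Ugt1a genes share exons. On differentiation 3 of the 4 fell and 1 rose in KO organoids (against 33.6% and 34.1%), and 2 fell and 1 rose in WT organoids (against 35.9% and 36.3%). Cyp1b1 had log2 changes of -4.53 ± 0.23 in KO and -3.69 ± 0.23 in WT organoids. Ugt1a6a rose by 3.61 in KO and 1.33 in WT organoids, the call in WT being lost without WT stem library 2 (adjusted p = 0.051) or 3 (0.070) or WT differentiated library 1 (0.072) or 3 (0.085). Tiparp had a log2 change of -1.46 in KO and Nqo1 one of -1.33 in WT organoids.

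Across the 12 libraries the members fell into patterns that mostly follow culture condition, given here as a description, since libraries of a group share their condition and genotype. Gsta2 and Gsta3 ran together (Pearson r = 0.92 of log2 values), as did Gsta3 and Mgst1 (0.90) and Gsta3 and Gstp1 (0.90). Gsta4 and Gstm3 also ran together (0.85), and Gstm3 ran against Mgst1 (-0.92). Gsta1 and Gsta2, in spite of their near identity, had r = -0.36. Outside the 10 genes, the protein-coding gene with the pattern most like each member was B230118H07Rik for Gsta3 (r = 0.995), Ndufv2 for Gstp1 (0.994), Ggta1 for Mgst1 (0.988) and Tmem39b for Gsta2 (0.985). It was Dpep1 for Gstm3 (0.979), Hic2 for Gsta4 (0.966), Fam189b for Gstm1 (0.959), Insig1 for Gsta1 (0.957), Abhd4 for Gsto1 (0.951) and Dglucy for Gstt1 (0.928).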

How the data were processed

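RNA of 12 mouse colonic organoid libraries was analysed from 1 table of normalized counts, a signal per gene and library that the authors made by dividing gene counts by size factors and deposited. The submitters' processing notes name GRCm38, Bowtie2, RSEM 1.2.11 and DESeq2 1.18.1. Filters, annotation and strand use of the counting are not given in the sources used here. Values were whole multiples of 1 step per library (100% within 0.05 of a read), so whole reads were recovered. Symbols, positions and exon lengths came from GENCODE vM21 (99.3% of identifiers matched).

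Groups came from the sample titles. A gene entered the fit if 3 or more libraries had a value of 10 or above (14856 genes), and these genes were fitted with limma 3.58.1 (R 4.3.3) on log2(value + 1), a scale that understates the change of low genes, with 4 group means, a mean-variance trend and all 12 libraries. Tests were two-sided, and a call means a p under 0.05 after Benjamini-Hochberg adjustment over the genes fitted. Alternatives were pseudocounts of 0.5 and 5, no filter, a mean of at least 50, recomputed size factors, TMM scaling, count models of the recovered reads by edgeR 4.0.16 (quasi-likelihood test) and DESeq2 1.42.0, fits of the compared groups alone, replicate blocks, and leaving out each library. Between KO and WT in the differentiated condition edgeR called 4092 genes and DESeq2 4773, against 4103 by limma. Residuals of libraries with the same replicate number correlated at 0.191 to 0.286 between KO differentiated and KO stem libraries, 0.0552 to 0.145 in WT, -0.0511 to 0.201 between KO and WT and -0.211 to 0.184 for other numbers. Between differentiated and stem libraries of other numbers they correlated at -0.211 to -0.00925 in KO and -0.103 to 0.0111 in WT. In each genotype, pairs of the same number thus lay above those of other numbers, by less in WT. The numbers may therefore pair libraries in both genotypes, a pairing read from the data and not stated in the labels. No libraries of a group were duplicates (chi-square per degree of freedom at least 9.46).

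The 10 genes, the gene lists and the tests were chosen with earlier results of these data known. Named genes were the 10, every called further GST gene, up to 3 called genes with the largest change per other list and comparison, and for each of the 10 the most similar protein-coding gene. Arnt, Gclc, Krt20 and Car1 were named after their values were seen. Genes with 3 or fewer reads in a group are given as levels. Promoters are 250 bases from RefSeq (GRCm38.p6), and coding identity comes from the longest annotated coding sequence.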

Additional observations from a re-analysis of the deposited data

Results flagged for a closer look

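For 3 GST genes the KO effect differed between the culture conditions by the interaction test (limma, adjusted over all genes tested). For Gstm1 the KO effect was 0.52 larger on the log2 scale in the differentiated than in the stem cell condition (adjusted p = 0.043). Its KO libraries were above its WT libraries in both conditions, by 0.78 in the differentiated and 0.26 in the stem cell condition. Gstk1 had a difference of -0.82 (adjusted p = 0.036), with a KO effect of -0.78 in the differentiated and 0.04 in the stem cell condition. Mgst2 had a difference of -0.76 (adjusted p = 0.049), with -0.71 and 0.06 in these conditions. When single libraries were left out, the adjusted p lay between 0.027 and 0.099 for Gstm1, 0.034 and 0.096 for Gstk1, and 0.030 and 0.11 for Mgst2. Of the 12 fits, 1 called Gstm1, 6 called Gstk1 and 3 called Mgst2. With the replicate number as a block within genotype, the adjusted p of Gstm1 was 0.061. The parts of maturation markers and of single libraries in these differences were not tested.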

How the results depend on the processing

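Of 1110 changes of the 10 genes recomputed under alternatives, 1048 kept their direction and their side of the threshold, 34 lost and 16 gained a call, and 12 changed sign. The KO changes of Mgst1, Gstm1, Gsta3 and Gsta1 in the differentiated condition were called under every alternative run. Counts of called genes in the stem cell condition were 1 with a mean of at least 50 or with only the groups compared, 6 with DESeq2 and 0 to 5 without single libraries, against 2 in the text. For the interaction they were 0 without a filter or with TMM scaling, 3 with DESeq2 and 0 to 1 without single libraries, against 1. A mean of at least 50 leaves Gsta2 and Gstm3 out of the fit. Otherwise the cause was not tested. Sign changes came only from leaving out 1 library, for changes near 0: Gsto1 between KO and WT differentiated libraries (-0.0083 to 0.12), Gsta1 (-0.13 to 0.45), Gstm1 (-0.20 to 0.0056) and Gstt1 (-0.12 to 0.25) on differentiation in KO, and the interactions of Gsta4 (-0.15 to 0.094) and Gstp1 (-0.11 to 0.020). Gstm3 in the differentiated condition was not called without a filter (adjusted p = 0.10), with DESeq2 (0.052) or with only the groups compared (0.068), and Mgst1 in the stem cell condition with only the groups compared (0.061). DESeq2 called the interactions of Gsta2 and Mgst1 (0.030 each).

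The replicate number as a block left the members called at 6, 2, 6, 9 and 1 in the order of comparisons in the text. Within genotype the block gave 6 for differentiation in KO, 10 in WT, adding Gstt1 (adjusted p = 0.0021), and 1 for the interaction, with Mgst1 (0.04998) in place of Gstm1 (0.061), and it was not run for KO against WT, since each such block lies in 1 genotype. The plain block changed no other call of a member.

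Over all genes, 976 were called between KO and WT in the stem cell condition, 1984 with DESeq2, 1486 with the block, 297 with only the groups compared and 363 to 1414 without single libraries. In the differentiated condition 4103 were called, and 2233 to 5699 without single libraries. The interaction called 1292, 750 without a filter, 2442 with DESeq2, 2141 with the block and 342 to 1603 without single libraries. Depth limits Gsta2, Gstm3 and the genes with few reads most, and near copies and the unstated deletion limit what the counts can show.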
